A study of Mus musculus with 4 samples.

Results

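Immunoglobulin constant regions and the J chain were followed in RNA of mouse pancreatic islets, the endocrine tissue of the pancreas. The 10 genes were taken by symbol among the 43629 Ensembl genes that were counted, and all 10 were found. They comprise the 8 heavy chain constant genes Ighm, Ighd, Ighg3, Ighg1, Ighg2b, Ighg2c, Ighe and Igha, the kappa light chain constant gene Igkc, and Jchain. There were 4 libraries of C57BL/6 islets, 1 in each group: islets of genotype Rip2;IMP2, which the series title calls a knockout of IMP2 specific to islets (here the labelled knockout), islets of genotype control, RNA from wild-type islets titled IMP2-RIP seq (the RIP, an immunoprecipitation of the RNA-binding protein IMP2), and wild-type islets titled IgG, the usual name of an antibody control. Rip2 commonly denotes an insulin promoter that works in beta cells, so lymphocytes are not its usual target. The sources used here do not give age, sex, the number of animals pooled or the deleted exons. With 1 library in each group no difference has a replicate check and no p-value is given. Intervals are exact 95% intervals that cover counting error only.

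An antibody is built from heavy and light chains, and the constant region of the heavy chain sets its class, or isotype. A naive B cell makes IgM and, by alternative splicing of the same transcript, IgD. Class switch recombination later joins the variable region to a constant gene further along the locus, which gives IgG, IgE or IgA. Plasma cells secrete the antibody in large amounts, and the J chain joins IgM and IgA, but not IgG, into polymers that the polymeric immunoglobulin receptor carries across epithelia. Islet endocrine cells do not normally transcribe antibody genes, and their transcripts in a tissue mark B cells and plasma cells.

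The heavy chain genes lie on the minus strand of chromosome 12 (mm10, gene models of GENCODE M21), in the order in which they can be joined. Ighm (ENSMUSG00000076617) is at chr12:113418558-113422730 and Ighd (ENSMUSG00000104213) at chr12:113406604-113416324. They are followed by Ighg3 (ENSMUSG00000076615, chr12:113356224-113361232), Ighg1 (ENSMUSG00000076614, chr12:113325240-113330523), Ighg2b (ENSMUSG00000076613, chr12:113302965-113307933) and Ighg2c (ENSMUSG00000076612, chr12:113285325-113288932), the IgG subclass gene that C57BL/6 mice carry in place of Ighg2a. Ighe (ENSMUSG00000087642, chr12:113269260-113273248) and Igha (ENSMUSG00000095079, chr12:113254830-113260236) close the locus. Igkc (ENSMUSG00000076609) is on the plus strand at chr6:70726435-70726966, and Jchain (ENSMUSG00000067149) on the minus strand at chr5:88519809-88527891. No other annotated gene overlapped an exon of any of the 10 genes.

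The classes that bind the J chain can be told from the IgG subclasses by the 3′ end of the secreted coding sequence. The last 60 coding bases before the stop codon are shown 5′ to 3′ from the GENCODE M21 transcripts, with in-frame cysteine codons in capitals. In Ighm and Igha the bases after the shared start ggtaaa encode the tailpiece, whose cysteine next to the last residue bonds to the J chain. The 4 Ighg sequences stop at the same ggtaaa and hold no cysteine codon in this window.
Ighm, chr12:113420870-113420929: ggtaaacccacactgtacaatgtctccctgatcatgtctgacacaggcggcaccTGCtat
Igha, chr12:113258771-113258830: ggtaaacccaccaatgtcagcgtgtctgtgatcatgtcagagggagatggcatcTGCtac
Ighg3, chr12:113359668-113359727: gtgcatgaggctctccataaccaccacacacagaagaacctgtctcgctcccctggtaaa
Ighg1, chr12:113328979-113329038: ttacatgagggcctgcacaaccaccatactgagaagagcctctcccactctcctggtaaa
Ighg2b, chr12:113306392-113306451: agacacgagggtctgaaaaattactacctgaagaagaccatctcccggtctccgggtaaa
Ighg2c, chr12:113287392-113287451: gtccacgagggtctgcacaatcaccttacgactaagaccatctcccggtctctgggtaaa

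The IgG subclasses differ most visibly in the hinge exon, which joins the antigen-binding arms to the stem and is shown because the subclass counts below rest on telling these genes apart. Capitals again mark in-frame cysteine codons, among which are those that form the bonds between heavy chains.
Ighg3, 48 bases, chr12:113360529-113360576: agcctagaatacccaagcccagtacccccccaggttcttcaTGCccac
Ighg1, 39 bases, chr12:113329844-113329882: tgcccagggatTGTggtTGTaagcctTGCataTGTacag
Ighg2b, 66 bases, chr12:113307261-113307326: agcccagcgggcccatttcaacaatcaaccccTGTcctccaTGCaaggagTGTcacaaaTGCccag
Ighg2c, 63 bases, chr12:113288263-113288325: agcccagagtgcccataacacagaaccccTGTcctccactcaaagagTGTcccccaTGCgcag

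The secreted coding sequences of Ighg2b and Ighg2c were 85.8% identical over 1002 aligned bases, and the other Ighg pairs 75.8% to 77.6%. Of all 50-base windows of the Ighg2c transcripts, 5.49% also occurred in Ighg2b, and windows shared with another of the 10 genes made up 4.15% of Ighg2b, 1.58% of Ighg3 and 0.393% of Ighg1. Ighm, Ighd, Ighe, Igha and Igkc shared no such window with any annotated transcript. How reads from shared stretches were counted is not stated, so the split between Ighg2b and Ighg2c is uncertain to that extent.

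The labelled knockout library held 24275628 gene counts, control 26350813, the RIP 6025594 and the IgG library 13195732. Igf2bp2, the gene of IMP2, had 222 counts in the labelled knockout, 255 in control, 186 in the RIP and 458 in the IgG sample, so a count over the whole gene gives no check of the knockout label. In CPM, which stands for counts scaled to the same total of gene counts in each library, that is 9.14 in the labelled knockout against 9.68 in control. Ins1 and Ins2 made up 32.1% of gene counts in the labelled knockout, 29.9% in control, 22.5% in the RIP and 0.0931% in the IgG sample, so the defining islet markers were nearly absent from the last. The brown adipocyte markers Ucp1, Cidea, Cox8b, Elovl3 and Adipoq summed to 3.30 CPM in the labelled knockout and 2.39 in control, against 1173 in the RIP and 19119 in the IgG sample. The RIP and IgG libraries also repeated their molecules, at an estimated 18 and 21 reads per molecule, the median count of genes over 5 counts that were at 0 in both islet libraries. That estimate is rough and may be too high.

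Antibody transcripts of each class with enough counts for a call were lower in the labelled knockout than in control islets, by very different factors. IgM fell least and the IgG subclasses Ighg1 and Ighg3 most. The 8 heavy chain genes together had 12951 counts (533 CPM) in the labelled knockout and 59539 counts (2259 CPM) in control, a ratio of 0.245 (95% interval 0.240 to 0.249). A gene was called when its interval excluded 1 and the ratio, after scaling by edgeR's trimmed mean of M values (TMM), was at least 1.5-fold either way, at a mean of at least 1 CPM over both libraries. By this rule 9 of the 10 genes were called lower and 0 higher, with Ighe under the minimum. Over all 15735 genes measured, 21.4% were called in either direction and 15.3% lower. The median log2 ratio of the 9 genes was -3.23, against 0.00 over all genes. In bulk RNA, fewer B cells or plasma cells and less antibody RNA in each cell cannot be told apart. Markers of other cells were lower in the labelled knockout as well: 6 T cell markers summed to 21.2 CPM there and 168 in control, and 5 lymph node stroma markers to 22.9 and 258 CPM. Of the stroma sums, Cr2, which mature B cells also express, held 9.89 CPM in the labelled knockout and 90.6 in control.

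**Figure D1:**
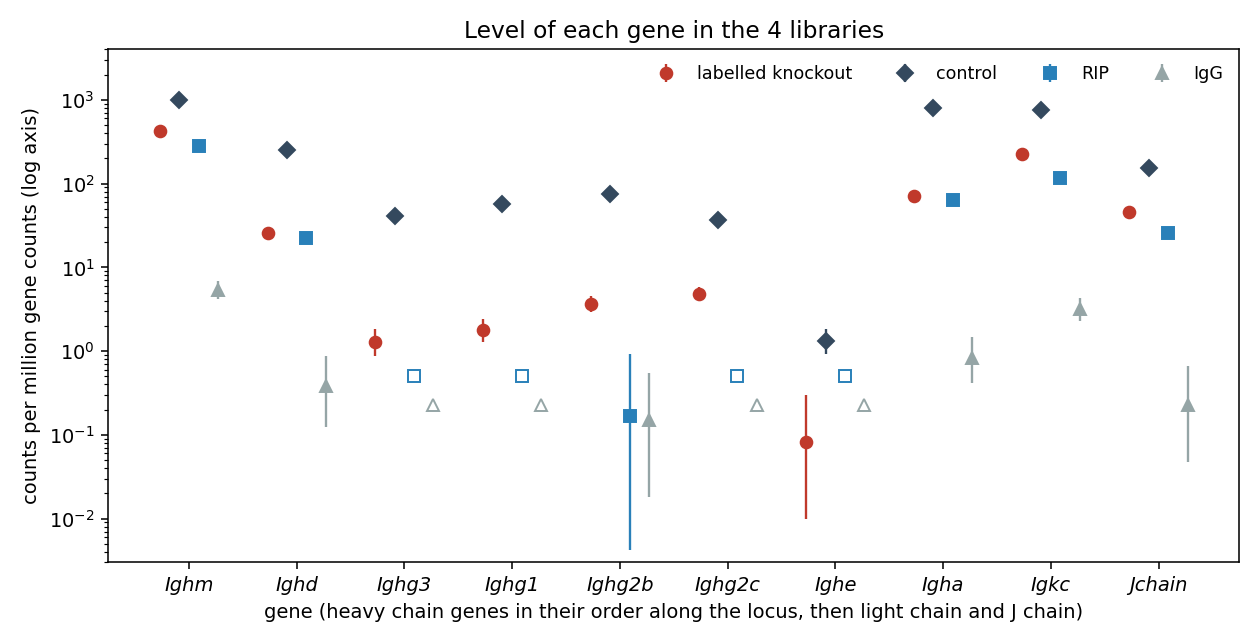
Level of each of the 10 genes, in CPM on a log axis, in the labelled knockout, control, RIP and IgG libraries. Bars are exact 95% counting intervals, and open symbols mark a library at 0 counts, drawn at the level of 3 counts (0.498 CPM in the RIP, 0.227 in the IgG library). Control lies highest for each gene, and the 4 Ighg genes have at most 2 counts in the RIP or IgG library.

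Ighm, which encodes the heavy chain of IgM, the class made first by every B cell, stood at 425 CPM in the labelled knockout, 1002 in control, 279 in the RIP and 5.38 in the IgG sample. Between the islet libraries its ratio was 0.440 (0.430 to 0.450), the highest of the 10. Ighd, which encodes IgD of naive mature B cells, stood at 26.1 CPM in the labelled knockout, 253 in control, 22.4 in the RIP and 0.379 in the IgG sample. It was 9.37-fold lower in the labelled knockout than in control (8.64 to 10.2). These genes share a promoter and primary transcript, and in this pair of libraries their ratios differed beyond counting error.

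Of the 4 Ighg genes, Ighg1, Ighg3 and Ighg2b fell furthest among the antibody genes called, and summed Ighg was 17.6-fold lower in the labelled knockout (15.6 to 19.9). Ighg1 had 43 counts in the labelled knockout against 1518 in control (31.4-fold lower, 23.2 to 43.6), and Ighg3 had 31 against 1078 (30.9-fold lower, 21.7 to 45.8). Ighg2b had 89 counts in the labelled knockout against 1982 in control, 19.8-fold lower (16.0 to 24.8). Ighg2c fell less, and less than Ighd and Igha, with 118 counts against 966 (7.28-fold lower, 6.01 to 8.89). The subclass split therefore differed between the islet libraries: the odds of Ighg1 to Ighg2c counts were 4.31-fold lower in the labelled knockout than in control (2.99 to 6.32), and those of Ighg3 to Ighg2c 4.25-fold lower (2.81 to 6.59). The odds of Ighg1 to Ighg3 had a ratio of 0.985 with an interval of 0.602 to 1.63. Ighe, which encodes the IgE heavy chain, had 2 counts in the labelled knockout against 35 in control, at a mean of 0.705 CPM, under the minimum for a call.

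Igha, the heavy chain of the mucosal antibody IgA, stood at 70.3 CPM in the labelled knockout, 792 in control, 64.2 in the RIP and 0.834 in the IgG sample. It was 10.9-fold lower in the labelled knockout than in control (10.4 to 11.4). Igkc, the constant part of the kappa light chain that most mouse antibodies carry, stood at 224 CPM in the labelled knockout, 764 in control, 116 in the RIP and 3.18 in the IgG sample, and the ratio between the islet libraries was 0.304 (0.295 to 0.314). Jchain had 1108 counts (45.6 CPM) in the labelled knockout and 4008 (152 CPM) in control, with 154 (25.6 CPM) in the RIP and 3 in the IgG sample. Its ratio of 0.311 (0.290 to 0.332) lay within the counting interval of Igkc and between those of Ighm and Igha, the heavy chains that it joins.

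**Figure D2:**
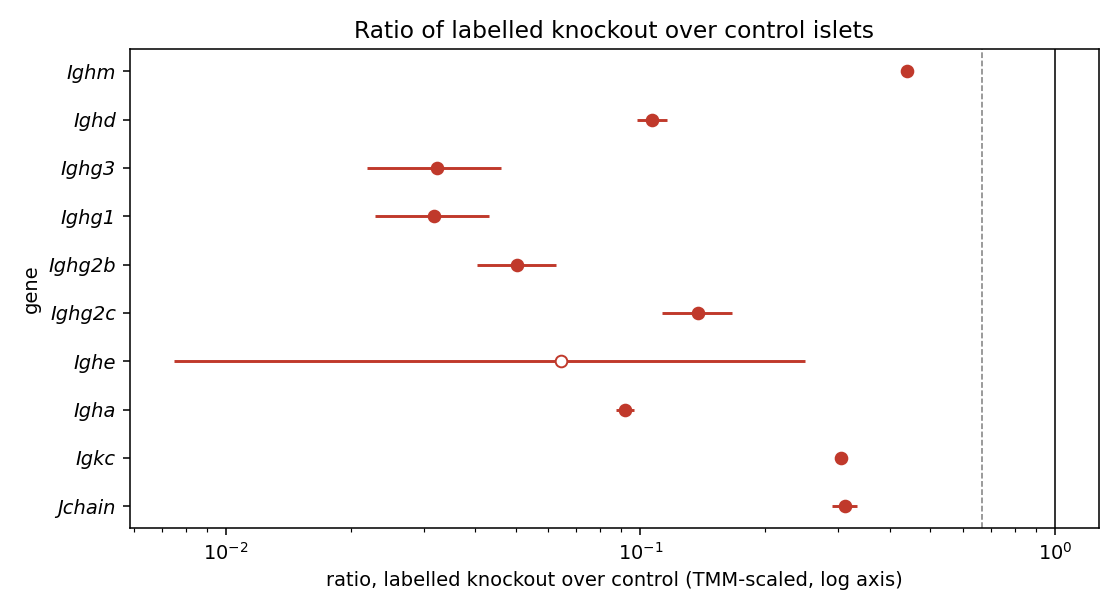
Ratio of TMM-scaled levels, labelled knockout over control islets, on a log axis, with exact 95% counting intervals. The solid line marks 1, the dashed line the 1.5-fold limit, and the open symbol a gene under the expression minimum. Each of the 10 ratios is below the limit, from 0.440 for Ighm to 0.0318 for Ighg1.

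Levels of different genes were compared per kilobase of merged exons. In control islets Ighm led at 531 CPM per kilobase, followed by Igha at 297 and Ighd at 133. Ighg2b at 28.1 and Ighg2c at 27.6 followed, with overlapping counting intervals, and then Ighg1 at 22.2, Ighg3 at 16.3 and Ighe at 0.838. In the labelled knockout Ighm led at 226 CPM per kilobase, ahead of Igha at 26.4, Ighd at 13.7 and Ighg2c at 3.67. Ighg2b followed there at 1.37, and Ighg1 at 0.683 and Ighg3 at 0.508 had overlapping intervals. In the RIP the order was Ighm at 148 CPM per kilobase, Igha at 24.1 and Ighd at 11.8. Igkc stood at 422 CPM per kilobase in the labelled knockout, 1435 in control, 217 in the RIP and 5.98 in the IgG sample.

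As shares of the summed per-kilobase level of the 8 heavy chain genes, Ighm took 83.0% in the labelled knockout, 50.3% in control, 80.5% in the RIP and 83.4% in the IgG sample. Igha took 9.69% in the labelled knockout, 28.1% in control, 13.1% in the RIP and 9.13% in the IgG sample. The 4 Ighg genes took 2.29% in the labelled knockout, 8.92% in control, 0.0337% in the RIP and 1.65% in the IgG sample. Among the labelled knockout, control and RIP, control thus had the most switched and the most IgD transcript per IgM transcript. The lead of Ighm over Igha in control rested on the length used: per kilobase of the secreted transcript, which leaves out the membrane exons, Ighm took 35.3% and Igha 37.9%, while Ighm led in the labelled knockout and the RIP by either length. The place of Ighg2c in control rested on the length too, since its annotated merged exons are shorter than those of the other subclasses. Per kilobase of the secreted transcript it took 1.74% in control, below the 3.55% of Ighg2b and the 1.99% of Ighg3. In the labelled knockout Ighg2c led the subclasses by either length, at 1.12% against 0.840% for Ighg2b per kilobase of the secreted transcript.

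**Figure D3:**
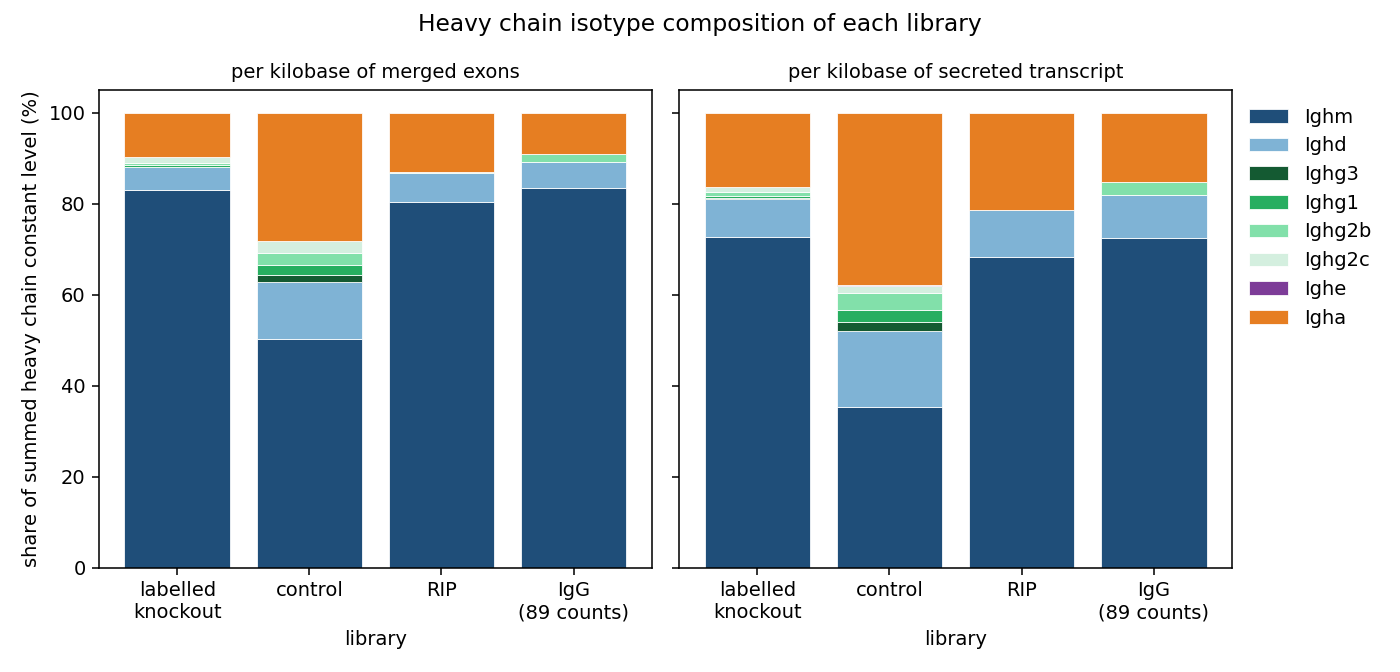
Share of each heavy chain constant gene in the summed level of all 8, in percent, for the labelled knockout, control, RIP and IgG libraries, per kilobase of merged exons (left) and of the secreted transcript (right). Ighm fills 83.0%, 50.3%, 80.5% and 83.4% of the bars on the left in that order, and the bar of the IgG library rests on 89 counts.

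Ratios of counts within a library do not depend on how libraries are scaled, and they are compared here only between libraries. The labelled knockout had 519 Ighm counts for every 100 counts of switched classes (the 4 Ighg genes, Ighe and Igha), and control had 99.8. The ratio of these odds was 5.20 (4.94 to 5.48). Ighd made 6.13 counts per 100 Ighm counts in the labelled knockout (5.65 to 6.64), against 25.3 in control (24.6 to 25.9). Igha made 16.5 per 100 Ighm in the labelled knockout (15.7 to 17.4), against 79.1 in control (77.7 to 80.5). The summed Ighg genes made 2.72 per 100 Ighm in the labelled knockout (2.41 to 3.06), against 21.0 in control (20.4 to 21.6). Among the switched classes Igha fell less than Ighg: the odds of Igha to summed Ighg were 1.61 times those in control (1.42 to 1.84). With an assumed coefficient of variation of 0.2 added to each sum, that interval widened to 0.729 to 3.57 and no longer excluded 1.

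The J chain stayed close to the classes it joins in each deeper library. Jchain made 9.21 counts per 100 counts of Ighm and Igha together in the labelled knockout (8.65 to 9.79), 8.48 in control (8.20 to 8.75), 7.44 in the RIP (6.28 to 8.77) and 3.66 in the IgG sample (0.739 to 11.1, on 3 counts). The ratio of labelled knockout over control odds was 1.09 (1.01 to 1.16), while the summed level of Ighm and Igha had a ratio of 0.286. Set against Igha alone, Jchain made 64.9 counts per 100 in the labelled knockout, against 19.2 in control. Igkc made 42.1 counts per 100 heavy chain counts in the labelled knockout (40.8 to 43.4), against 33.8 in control (33.3 to 34.3). Iglc2, the one lambda constant gene among the genes counted, made 10.1 counts per 100 Igkc in the labelled knockout (9.26 to 11.1), against 7.91 in control (7.51 to 8.33). With an assumed coefficient of variation of 0.2 in each sum, the intervals of the Jchain and Igkc odds ratios, 0.494 to 2.39 and 0.568 to 2.73, included 1.

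**Figure D4:**
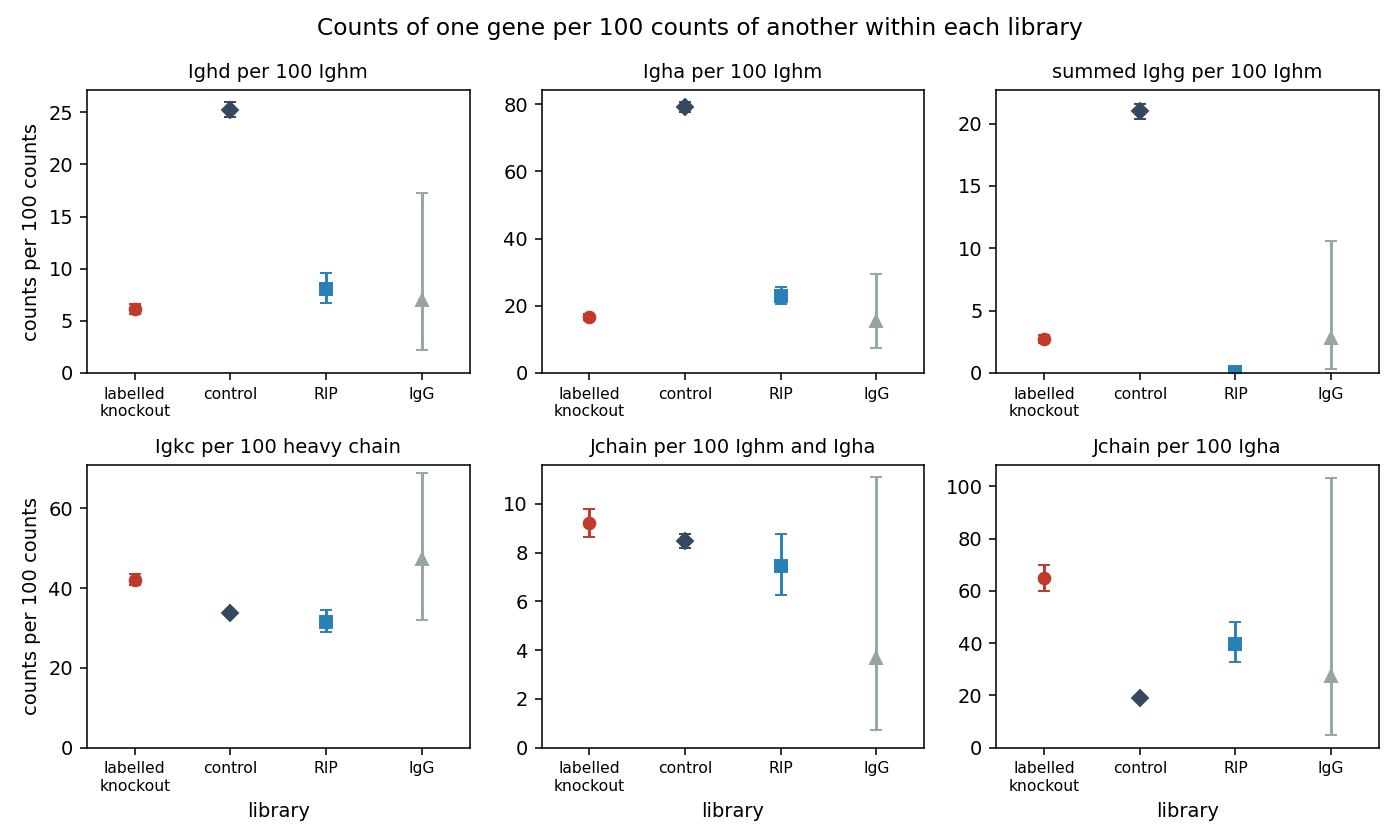
Counts of a gene or sum per 100 counts of another within each library, with exact 95% counting intervals, for the labelled knockout, control, RIP and IgG libraries. Among the labelled knockout, control and RIP, the levels of Ighd, Igha and summed Ighg per Ighm stand highest in control (25.3, 79.1 and 21.0), and Jchain per Ighm and Igha lies between 7.44 and 9.21 in the labelled knockout, control and RIP.

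Antibody transcripts were present in the RIP and close to absent from the IgG library. The question of this comparison is which RNAs came down with IMP2 more than with a control antibody. The 8 heavy chain genes had 2205 counts (366 CPM) in the RIP and 89 counts (6.74 CPM) in the IgG sample, a ratio of 33.6 (27.2 to 42.1). Under a limit of 2-fold, 5 of the 10 genes were called higher in the RIP and 0 lower. Over all 14822 genes measured, 73.7% were called in either direction and 43.2% higher. That background moved with the scaling: 6402 genes were called higher and 4518 lower with TMM, 7670 and 3387 with library totals, 8539 and 2806 with totals without acinar and hormone genes, and 2403 and 2864 on estimated molecules. The other 5 genes, Ighe and the 4 Ighg genes, were below 1 CPM in both libraries.

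Ighm had 1682 counts in the RIP against 71 in the IgG library, a ratio of 32.2 (25.4 to 41.4). Igha had 387 counts in the RIP against 11 in the IgG library (47.8, 26.4 to 96.5), and Ighd 135 against 5 (36.7, 15.3 to 115). Igkc had 697 counts against 42, a ratio of 22.5 (16.5 to 31.6), and Jchain 154 against 3 (69.7, 23.4 to 342). On estimated molecules the ratio was 25.6 for Igha (4.14 to 1057) and 22.7 for Igkc (5.88 to 194). With totals in place of TMM the summed heavy chain ratio was 54.3. The islet hormone genes Ins1, Ins2, Iapp, Gcg, Sst and Ppy moved the same way, with 6 of 6 called higher in the RIP, against 43.2% of all genes. They had a summed level of 256108 CPM in the RIP and 1076 in the IgG sample, and ratios of 82.4 for Ppy to 167 for Iapp. The brown adipocyte markers, 5 of 5 called lower in the RIP against 4518 of all 14822 genes, moved the other way. The part of tissue content in the ratios of the antibody genes was not tested.

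Relative to islet RNA, the antibody genes of the RIP lay below control: Ighm at 279 CPM in the RIP against 1002 in control, Igha at 64.2 against 792, and Jchain at 25.6 against 152. The balance of heavy chain classes in the RIP lay nearer to that of the labelled knockout than to that of control, although the label gives wild-type islets. On counts it differed from the labelled knockout too. The odds ratio of RIP over labelled knockout was 1.31 for Ighd to Ighm (1.07 to 1.59) and 1.39 for Igha to Ighm (1.23 to 1.57). Ighd made 8.03 counts per 100 Ighm in the RIP (6.68 to 9.57) and Igha 23.0 (20.5 to 25.7), against 25.3 and 79.1 in control. Divided by 18 reads per molecule, these are 8.60 (3.61 to 17.7) and 23.7 (14.1 to 38.0), still under the control values and with intervals that hold the 6.13 and 16.5 of the labelled knockout. Light chain went the other way: Igkc made 31.6 counts per 100 heavy chain counts in the RIP, nearer to 33.8 in control than to 42.1 in the labelled knockout. On estimated molecules its interval, 21.7 to 46.2, held both.

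IgG subclass transcripts were at the edge of detection in the RIP. Ighg2b had 1 count, and Ighg1, Ighg2c, Ighg3 and Ighe had 0, for which the exact counting interval reaches 0.612 CPM each. That bound takes reads as independent molecules. At the estimated 18 reads per molecule of the RIP, the levels that 0 counts allow are higher. In the IgG library Ighg2b had 2 counts and the other 4 genes had 0. In the control library Ighg2b alone stood at 75.2 CPM and Ighg1 at 57.6. The 4 Ighg genes took 0.0454% of heavy chain counts in the RIP (0.00115 to 0.252), 2.17% in the labelled knockout (1.93 to 2.44) and 9.31% in control (9.08 to 9.55). On estimated molecules the RIP held about 122 heavy chain molecules with 0 from an Ighg gene, for which the exact interval of the share reaches 2.98%. That limit lies under the control share and above the share in the labelled knockout, so a difference from the labelled knockout was not detectable at this depth. In the IgG library the 89 heavy chain counts correspond to about 4 molecules, too few to describe a balance of classes.

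B cell genes moved with the antibody genes between the islet libraries. Of the light chain genes, Igkc, Iglc2 and Vpreb3 were measured and all 3 were called lower in the labelled knockout, against 15.3% of all genes. Igkc belongs to the antibody genes already counted above, so only Iglc2 and Vpreb3 are separate from them. All 6 B cell markers were called lower in the labelled knockout, against the same 15.3% of all genes. Their median log2 ratio was -2.30, and they summed to 187 CPM in the labelled knockout against 960 in control. Ms4a1, which encodes CD20, stood at 38.1 CPM in the labelled knockout and 208 in control, a ratio of 0.190, and the signalling subunit gene Cd79b at 38.6 and 198, a ratio of 0.202. The lowest member was Cd22 at 0.165, and the highest was Pax5, the B cell transcription factor, at 0.363. The ratio of Ighm (0.440) lay above all 6 and that of Igha (0.0919) below all 6. Genes listed for germinal centre B cells had 7 of 7 measured members called lower, against 15.3% of all genes, with a median of -1.96. Rgs13, a regulator of G protein signalling, had 3 counts in the labelled knockout against 100 in control, and Cxcr5, the receptor that guides B cells into follicles, a ratio of 0.260, while Mef2b was at 0 in both.

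Repair genes that act in class switch recombination and somatic hypermutation had 5 of 15 measured members called lower and 0 higher, against 15.3% of all genes called lower, with a median of -0.23. The 5 were Polh (0.476), Apex1 (0.538), Msh6 (0.567), Rif1 (0.572) and Ung (0.595), genes of lesion bypass, base and mismatch repair or break repair that other dividing cells also use. The end-joining genes Xrcc6, at a ratio of 1.08, and Trp53bp1, at 1.06, were not called. Signals that direct switching, with their receptors, had 5 of 7 measured members called lower, against 15.3% of all genes, and a median of -1.61. Among the 5 were Tgfb1, a cytokine that directs switching to IgA, at 0.407 and Tnfrsf13c, the BAFF receptor gene, at 0.117. Il4, a cytokine that directs switching to IgG1 and IgE, had 36 counts in the labelled knockout and 27 in control.

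Plasma cell genes did not move as a block. Of 6 markers 5 were measured, of which 2 were called lower and 1 higher, against 15.3% of all genes called lower, with a median of -0.56. Mzb1, a chaperone cofactor of antibody assembly, had a ratio of 0.294, and Slamf7, the lowest, 0.226. Prdm1, at 0.872, and Sdc1, at 0.677, were not called. Derl3, a component of endoplasmic reticulum degradation that is not restricted to plasma cells, was called higher at 1.80. Tnfrsf17, which encodes the plasma cell receptor BCMA, had 5 counts in the labelled knockout and 24 in control, below the minimum. Among regulators of plasma cells and of antibody folding, 2 of 12 were called lower, a share near the 15.3% of all genes: Pou2af1, a B cell coactivator, at 0.173 and Irf4, a transcription factor of plasma cells, at 0.329. The folding genes of that list, which endocrine cells also express, were not called, with Hspa5, the chaperone BiP that was first found on heavy chains, at 1.21 and Hsp90b1 at 1.02.

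Receptors and transporters of antibodies moved in part. Of 11 measured Fc receptor and transport genes, 5 were called lower in the labelled knockout and 0 higher (median log2 ratio -0.37), against 15.3% of all genes called lower. The 5 were Fcamr, a receptor gene for IgA and IgM (0.0986), Fcer2a, the low-affinity IgE receptor gene CD23 (0.134), Fcmr, the IgM receptor gene (0.146), Pigr, the transporter of polymeric IgA and IgM (0.220), and Fcgr2b, the inhibitory IgG receptor gene (0.466). The activating IgG receptor genes Fcgr1, Fcgr3 and Fcgr4 had ratios of 0.991, 0.969 and 1.18 and were not called.

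Other cell types moved with the antibody genes as well. T cell markers had 6 of 6 called lower in the labelled knockout, against 15.3% of all genes, with a median log2 ratio of -2.92. Lymph node stroma markers had 5 of 5 called lower, against the same 15.3%, with a median of -3.22. Glycam1, a mucin of high endothelial venules, had the lowest ratio of the stroma list, 0.0652. Of the enterocyte markers 4 of 5 were called lower, again against 15.3% of all genes. Alpi had 1 count in the labelled knockout against 306 in control, and Vil1, which other epithelia express too, held most of the list's sum of 100 CPM in the labelled knockout and 134 in control. Of the islet hormone genes 1 of 6 was called, Gcg at 1.81, and of the acinar markers 0 of 4 measured, against 21.4% of all genes called in either direction. The part of lymphoid or intestinal tissue in the fall of the antibody genes was not tested.

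**Figure D5:**
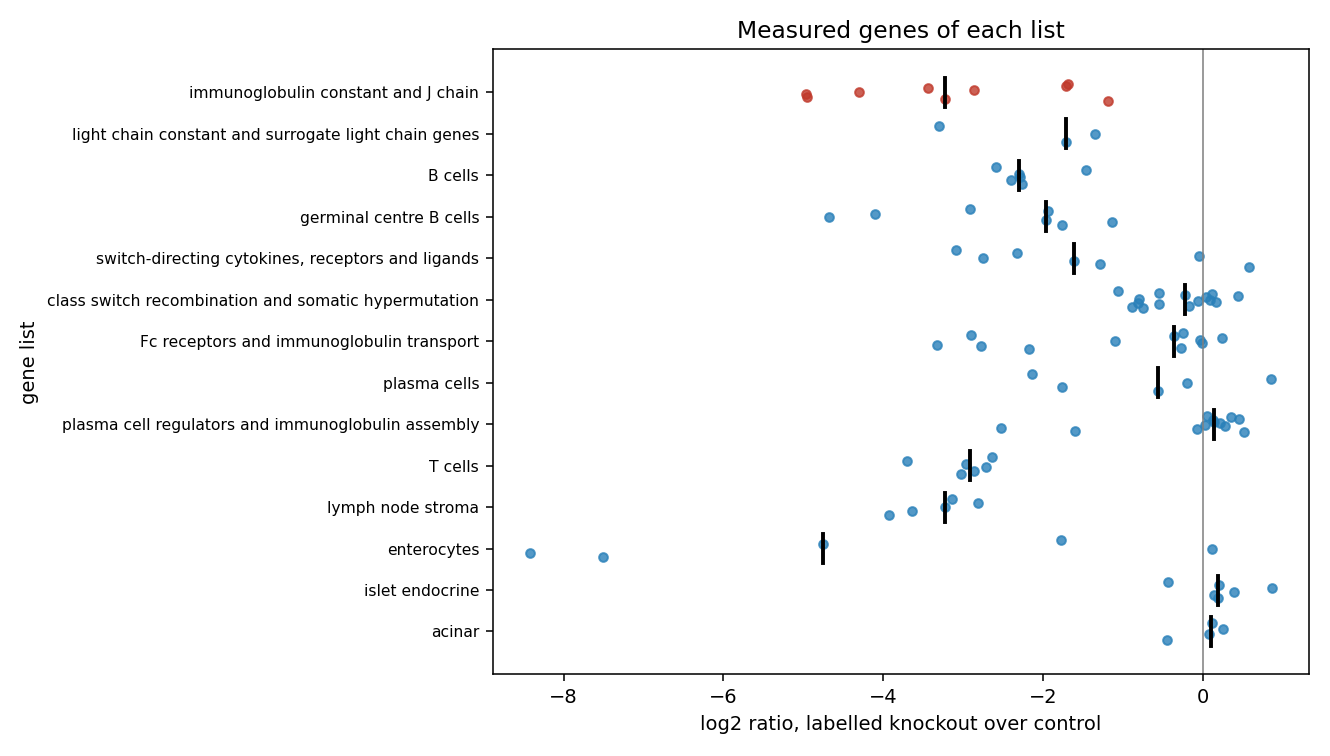
Log2 ratio, labelled knockout over control, of each measured gene of the 10 antibody genes (red) and of 13 gene lists (blue), with the median of each as a black bar. The antibody genes have a median of -3.23, B cell markers -2.30 and lymph node stroma markers -3.22, while most folding genes and the acinar markers lie around 0. The light chain list also holds Igkc, and the stroma list holds Cr2, which B cells express too.

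The genes most alike in pattern were searched outside the immunoglobulin loci, by the smallest root mean square difference of centred log2 levels over the 4 libraries, among genes at 5 CPM or more over both islet libraries. Jchain was the nearest to Igkc, at 0.0721, and the kinase gene Syk the nearest to Jchain, at 0.128. Nup210, a nuclear pore gene, was the nearest to Ighm, at 0.115, and Pou2af1 the nearest to Ighd, at 0.276. Ptprc, the pan-leukocyte marker CD45, was the nearest to Igha, at 0.352. Fcrl1, a receptor-like gene of B cells, was the nearest to Ighg2c, at 0.141. Cd5, found on T cells and some B cells, was the nearest to Ighg1 at 0.613 and to Ighg2b at 0.507, and Dsc3, a desmosome gene, the nearest to Ighg3 at 0.459, the largest distances to a nearest gene among the 9 searched. With 4 libraries, such a likeness is a description only.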

How the data were processed

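Each library has 1 deposited table of raw counts for 43629 Ensembl genes. Per the submitters' processing notes, reads were aligned with STAR and counted with HTSeq on mm10. The sources used here do not give versions, annotation release or strand option, and counts do not separate membrane from secreted transcripts. The 5 closing entries that name no gene held 50.3% of the deposited total in the labelled knockout, 50.8% in control, 72.4% in the RIP and 70.5% in IgG, and were left out. GENCODE M21 (GRCm38, the assembly of mm10) gave symbols, exon lengths and sequences, and matched 42462 identifiers. The release used for counting may differ in exon lengths. The lambda genes Iglc1, Iglc3 and Iglc4 of M21 were not analysed here.

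CPM was computed over gene counts, and pairs of libraries were scaled by TMM in edgeR 4.0.16 (R 4.3.3). Ratios have Clopper-Pearson intervals on the counts, levels Poisson intervals, and odds ratios exact conditional intervals. List medians add 0.5 counts. Floors are 3 counts. Without molecular identifiers, reads are not independent molecules, so intervals and floors cover counting error only. The ratio script was tested on simulated data. SciPy 1.17.1, Biopython 1.88 and Matplotlib 3.10.9 were used.

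The 10 genes, the gene lists and the tests were chosen with earlier results of these data known. Named list genes are the most abundant and those with extreme ratios; others, such as Tnfrsf17, Mzb1, Pou2af1, Trp53bp1, Il4 and the Fc receptor genes, were named after their values were seen. A gene of these lists is not reported here and was left out of the counts. The Ighd, Igkc, Jchain, Iglc2 and subclass odds were added after the counts were seen.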

Additional observations from a re-analysis of the deposited data

How the results depend on the processing

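No paired analysis was possible because each group has 1 library. The number of antibody genes called (9 lower in the labelled knockout, 5 higher in the RIP) was the same under each scaling, expression minimum, fold limit and assumed variation tried, except that 10 were called lower in the labelled knockout with no minimum. Both summed heavy chain ratios kept their direction under each scaling and the assumed variation. The summed ratio of labelled knockout over control ranged from 0.236 under library totals to 0.249 under totals without acinar and hormone genes. That of RIP over IgG was 32.7 with DESeq2 1.42.0 size factors, 54.3 under library totals, 72.9 under totals without acinar and hormone genes and 35.5 on estimated molecules. The same scalings moved the median log2 ratio of all genes from 0.44 to 0.40, 1.13 and 1.56. Calls over all genes between the islet libraries numbered 965 higher and 2409 lower, against 273 and 1581 with an assumed coefficient of variation of 0.2 and 198 and 1375 with a limit of 2-fold. The Igha to summed Ighg odds ratio of 1.61 lost its call under an assumed coefficient of variation of 0.2, and ranged from 1.38 without Ighg1 to 2.30 without Ighg2c. The Ighm share depended on the length used, by construction. In the labelled knockout it was 79.7% on counts, 83.7% per longest transcript and 72.7% per secreted transcript, a length chosen after seeing the data. In control it was 44.4%, 51.6% and 35.3% in the same order, the last below Igha. In the RIP it was 76.3% on counts and 68.4% per secreted transcript, and in the IgG library 72.5% per secreted transcript. Depth limits the RIP to about 122 and the IgG library to about 4 estimated heavy chain molecules.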

Other observations

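Receptors and early B cell genes outside the comparisons above gave further values. Fcgrt, which encodes the neonatal Fc receptor that carries and protects IgG, stood at 43.6 CPM in the RIP and 437 in the IgG sample, with 23.9 in the labelled knockout and 30.1 in control, so in the IgG library an antibody transporter was abundant where antibody transcripts were nearly absent. Pigr stood at 18.3 CPM in the RIP and 0.0758 in IgG. The surrogate light chain genes of developing B cells were close to absent: Igll1 had 0 counts in the labelled knockout and 3 in control, and Vpreb1 had 6 and 3 counts, with 13 in the RIP, which is under 1 estimated molecule. Vpreb3, which later B cell stages also express, had 22 counts in the labelled knockout against 250 in control, a ratio of 0.0989, and was at 0 in both precipitated libraries. Variable, diversity and joining segments summed to 3765 counts in the labelled knockout, 17723 in control, 760 in the RIP and 10 in the IgG sample, with a ratio of labelled knockout over control of 0.239 (0.230 to 0.247), close to that of the summed heavy chain constant genes.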
